A study of Drosophila melanogaster with 24 samples.

Results

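Whole adult females of Drosophila melanogaster lines selected for resistance to starvation were compared with females of unselected control lines, with 3 lines and so 3 arrays on each side. The arrays were chosen by their titles, which name the regime and the replicate, and they are 6 of the 24 arrays of the study. Each array measured pooled RNA of a vial of 10 females, from which 5 micrograms of total RNA were labelled after oligo-dT priming. The other 18 arrays hold 3 lines each of 6 further regimes, namely heat selected, cold selected, desiccation selected, knock-down selected, longevity selected and constant 30 lines. They entered the fit for its estimate of the spread and served for a second comparison whose difference uses no control array. The labels give no strain, age, feeding state or number of generations of selection, and they do not say how long before sampling the selected lines were last starved. They call the arrays biological replicates of numbered lines, so the p-values here measure the spread between these lines.

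Values are on the log2 scale of the array, where a step of 1 is a doubling of the signal, and a difference is the mean of the starvation selected arrays minus the mean of the control arrays. A probe set is the group of probes that reports a transcript. Those that exceeded 4 in 3 or more of the 24 arrays were tested, which left 9023 of 13966. A probe set was called when its p, adjusted over all tested probe sets, was under 0.05.

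A fly deprived of food lives on fat stored as triglyceride in the fat body and on glycogen, the stored form of sugar. Adipokinetic hormone and lipases release these stores, while insulin and TOR signalling, which respond to sugar and amino acids, favour growth, egg production and storage. Selection for starvation resistance in flies is known from other work to act often through larger fat stores, slower use of them, or both. Of the gene lists drawn up, 7 cover fuel and nutrients, and the others cover further tissues and functions.

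Array quality was compared by signal, correlation and RNA integrity. Over all 24 arrays, medians lay between 5.46 and 5.57 and 8544 to 9071 probe sets were above 4. Control replicate 1 had the lowest median of all, and starvation selected replicate 1 the fewest probe sets above 4. Correlations over tested probe sets were 0.992 to 0.995 within control, 0.992 to 0.994 within the starvation selected lines and 0.989 to 0.995 between them. The 3′ minus 5′ difference of the control probe sets, a measure of RNA integrity, was 1.77 ± 0.11 (SD, n = 3) in the starvation selected lines and 1.75 ± 0.06 (SD, n = 3) in control (two-sided exact permutation test, p = 0.9, where the smallest possible p is 0.1). The labelled tissue fitted its markers: the 3 yolk protein genes had control means of 14.01 to 14.73, near the top of the scale. Of 16 testis markers on the array, 2 were above 4 on any of the 6 arrays, and of 14 markers of the male accessory gland also 2. The highest was bol, a germ line translation factor, at 7.34, 7.33 and 7.83 in control and at 7.53, 7.24 and 7.63 in the starvation selected lines. No male marker had a higher mean in the starvation selected lines than in control. Most of them lay under 4 on all 6 arrays, so their direction says little about male tissue. The third control line stood nearer to the starvation selected lines than its sister lines did, with a mean correlation of 0.994 against 0.991 for each of the other two.

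No probe set passed the test between starvation selected and control females, so 0% were called. The smallest adjusted p was 0.0673 in limma. At an unadjusted p under 0.05 there were 831 probe sets (9.21%), of which 311 (3.45%) had the higher mean in the starvation selected lines and 520 (5.76%) the lower. The 3 values of either group did not overlap in 1388 probe sets (15.4%), 321 higher (3.56%) and 1067 lower (11.8%) in the starvation selected lines. Differences were small. Only 110 probe sets lay 0.5 or more above control and 25 lay 0.5 or more below, and over the 7438 genes, each taken by its brightest probe set, the median difference was -0.03 with 40.8% above 0.

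The count of calls moved with single arrays. With the replicate number as a block, which pairs line 1 with line 1 and so on, 6 probe sets were called. Of these, CG17752 was higher, and CG2926, CycT, Scamp and 2 probe sets without a gene name were lower. Without control replicate 3 there were 83 calls, 56 higher and 27 lower, and without starvation selected replicate 1 there were 16, 4 higher and 12 lower. Array weights, which give noisier arrays less say, gave 177 calls, 69 higher and 108 lower. That fit weighted starvation selected replicate 2 at 3.06 and replicate 1 at 0.502. Leaving out any other of the 6 arrays gave 0 calls.

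Among genes with a higher mean in the starvation selected lines, Drat had the smallest p. Drat encodes a protein with an alcohol dehydrogenase-like domain. Its control values were 7.61, 7.46 and 7.90, and its starvation selected values were 8.06, 8.55 and 8.57. The groups did not overlap, with control replicate 3 and starvation selected replicate 1 next to each other, and the means differed by 0.73 ± 0.15 (SE), or 1.66-fold (adjusted p = 0.142 in limma). In RNA of whole animals, fewer cells of a type and less RNA per cell cannot be told apart, for this and every other gene. Npc2b, of the Npc2 family of sterol-binding proteins, likewise had control replicate 3 and starvation selected replicate 1 next to each other. It was at 6.88, 6.90 and 7.29 in control and at 7.35, 7.85 and 7.95 in the starvation selected lines, a difference of 0.69 ± 0.16 (SE; adjusted p = 0.148 in limma). Over the 15 alternative settings the adjusted p of Drat ran from 0.0028 to 0.59 and that of Npc2b from 0.00711 to 0.664, and each was called in 3 of them.

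The other 8 probe sets taken on the higher side, by smallest p among those without overlap, differed by 0.35 to 0.83. CG17752 had the largest difference of them, 0.83 ± 0.21 (SE), with control at 5.57, 5.79 and 5.79 and the starvation selected lines at 6.37, 6.77 and 6.49. Here all 3 control lines lay close together, well apart from all 3 selected lines. Six4, a homeobox factor of mesoderm, was at 5.82, 5.497 and 5.70 in control and at 5.91, 6.24 and 6.36 in the starvation selected lines, where replicate 1 came within 0.1 of the highest control. The cytochrome b561 gene nemy differed by 0.53 on the probe set chosen and by 0.01 on its brighter one, so its probe sets disagree. The remaining genes were osy (0.50), CG6836 (0.50), CG42329 (0.58), CG17919 (0.35) and CG14292 (0.55). Of these, CG42329 lay near the detection limit, at 3.83, 3.66 and 3.69 in control against 4.25, 4.46 and 4.21.

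**Figure D1:**
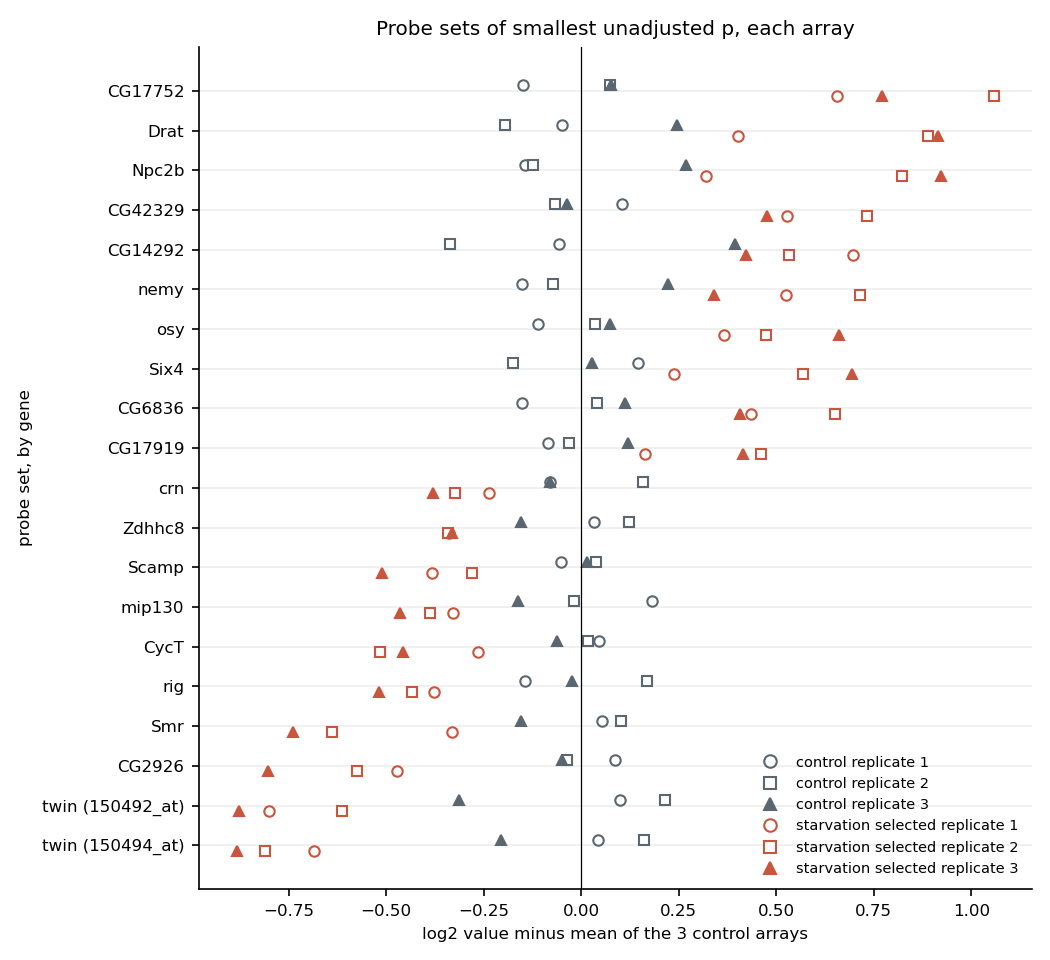
Log2 value on each of the 6 arrays minus the mean of the 3 control arrays (x axis) for the 20 probe sets of smallest unadjusted p whose groups do not overlap (y axis), 10 higher and 10 lower in the starvation selected lines; grey symbols are control arrays and red symbols starvation selected arrays, with the symbol giving the replicate. Control replicate 3, the filled grey triangle, is the control nearest to the selected lines in 15 of the 20.

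On the lower side, 10 probe sets of 9 genes were taken by the same rule. The gene twin encodes the Ccr4 deadenylase, which shortens the poly(A) tails of mRNA, and both of its probe sets were among the 10. The brighter one was at 8.95, 9.06 and 8.54 in control and at 8.05, 8.24 and 7.97 in the starvation selected lines, and the other at 6.78, 6.89 and 6.53 against 6.05, 5.92 and 5.85. All 3 selected lines lay below all control lines on both, with differences of -0.76 ± 0.17 and -0.79 ± 0.18 (SE; adjusted p = 0.148 for each in limma).

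Smr encodes a co-repressor that works with nuclear hormone receptors. It was at 7.24, 7.28 and 7.03 in control and at 6.85, 6.54 and 6.44 in the starvation selected lines, a difference of -0.57 ± 0.11 (SE; adjusted p = 0.0872 in limma), and its brighter probe set differed by -0.34. CycT, the cyclin partner in the kinase that releases paused RNA polymerase, was at 9.40, 9.38 and 9.29 in control and at 9.09, 8.84 and 8.90 in the starvation selected lines. Scamp, a membrane protein of secretory vesicles, had the smallest adjusted p of any named gene (0.0673 in limma), with 8.05, 8.14 and 8.12 in control against 7.72, 7.82 and 7.59. For Scamp and CycT the gap between the groups was wider than the range within control, and for Smr it was narrower. The 3 genes were 1.31-fold to 1.48-fold lower in mean. Scamp was called in 6 of the 15 alternative settings, Smr and CycT in 5 each, with the adjusted p of all 3 reaching 0.59 in another.

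The uncharacterised gene CG2926 was at 9.66, 9.54 and 9.53 in control and at 9.10, 9.0002 and 8.77 in the starvation selected lines (-0.62 ± 0.12, SE), but its brighter probe set differed by 0.04. The rest were mip130, a subunit of the Myb-MuvB complex (-0.39), Zdhhc8, a palmitoyltransferase (-0.34), crn, a splicing factor (-0.31), and rig, a partner of the ecdysone receptor and the Gemin5 homologue (-0.44). Zdhhc8 and rig each have 2 further probe sets with smaller differences, from -0.22 to -0.04 and from -0.23 to -0.08. The probe set chosen for Zdhhc8 lay near the detection limit, at 4.22, 4.31 and 4.03 in control against 3.85, 3.85 and 3.86. A probe set without a gene name had as small an adjusted p as Scamp, with 6.39, 6.49 and 6.17 in control against 5.87, 5.90 and 5.53.

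Differences of 1 or more were reached by 3 probe sets on the higher side and 2 on the lower. The largest was Lsp2, a storage protein of the fat body that fly larvae build up before metamorphosis. It was at 9.89, 10.52 and 8.38 in control and at 7.94, 7.58 and 8.31 in the starvation selected lines, a difference of -1.65 ± 0.78 (SE; unadjusted p = 0.0461, adjusted p = 0.536 in limma). Control replicate 3 was within 0.1 of the highest selected line, and the difference ran from -2.26 without that array to -1.19 without control replicate 2. Against the mean of the other regimes the sign was opposite, with Lsp2 0.33 higher in the starvation selected lines (unadjusted p = 0.578 in limma). The other 4 probe sets of this size were picked out after their values were seen, and their groups overlapped: Cyp6a17 (-1.13), Cyp6a8 (1.03), CG16775 (1.02) and a probe set without a gene name. Among the 6 arrays compared, that probe set was raised on starvation selected replicate 2 alone. Its difference from the other regimes was 0.11. Cyp6a17 and Cyp6a8 belong to the cytochrome P450 family, which oxidises toxins and hormones. Control replicate 3 was at 4.13 for Cyp6a17 against 6.002 and 6.26 in its sister lines.

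The digestive lysozyme gene LysP was among the 6 largest differences on the higher side whose groups did not overlap. It was at 7.07, 6.84 and 7.26 in control and at 7.96, 7.46 and 8.22 in the starvation selected lines, 1.78-fold higher (0.83 ± 0.26, SE; adjusted p = 0.324 in limma). CG31038 (0.81) and CG3088 (0.67) completed these 6 with the genes above, and CG3085 (-0.71) and CG2961 (-0.63) the 6 lowest. CG31038 owed its difference to replicates 2 and 3, at 7.73 and 7.91, while replicate 1 was at 6.78 against 6.62 to 6.70 in control.

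The same genes were placed among all 8 groups. In 18 of the 20 probe sets above, the control mean lay beyond the means of all 6 other regimes on the side away from the starvation selected lines, and in 10, 4 higher and 6 lower, the starvation selected mean lay beyond all 6 on its own side. Over all tested probe sets these counts were 2481 and 1710 of 9023, and over the 831 with an unadjusted p under 0.05 they were 545 and 369. For Drat the 6 other regimes had means of 8.05 to 8.38, all above control at 7.66 and all below the starvation selected mean of 8.39. For CG17752, 4 of the 6 other regimes had a higher mean than the starvation selected lines. Control replicate 3 was the control nearest to the selected lines in 15 of the 20 (75%). It was so in 44.2% of all tested probe sets and in 65.8% of those 831. The rule chose these 20 by the same control arrays, so the counts describe them and are not a test.

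**Figure D2:**
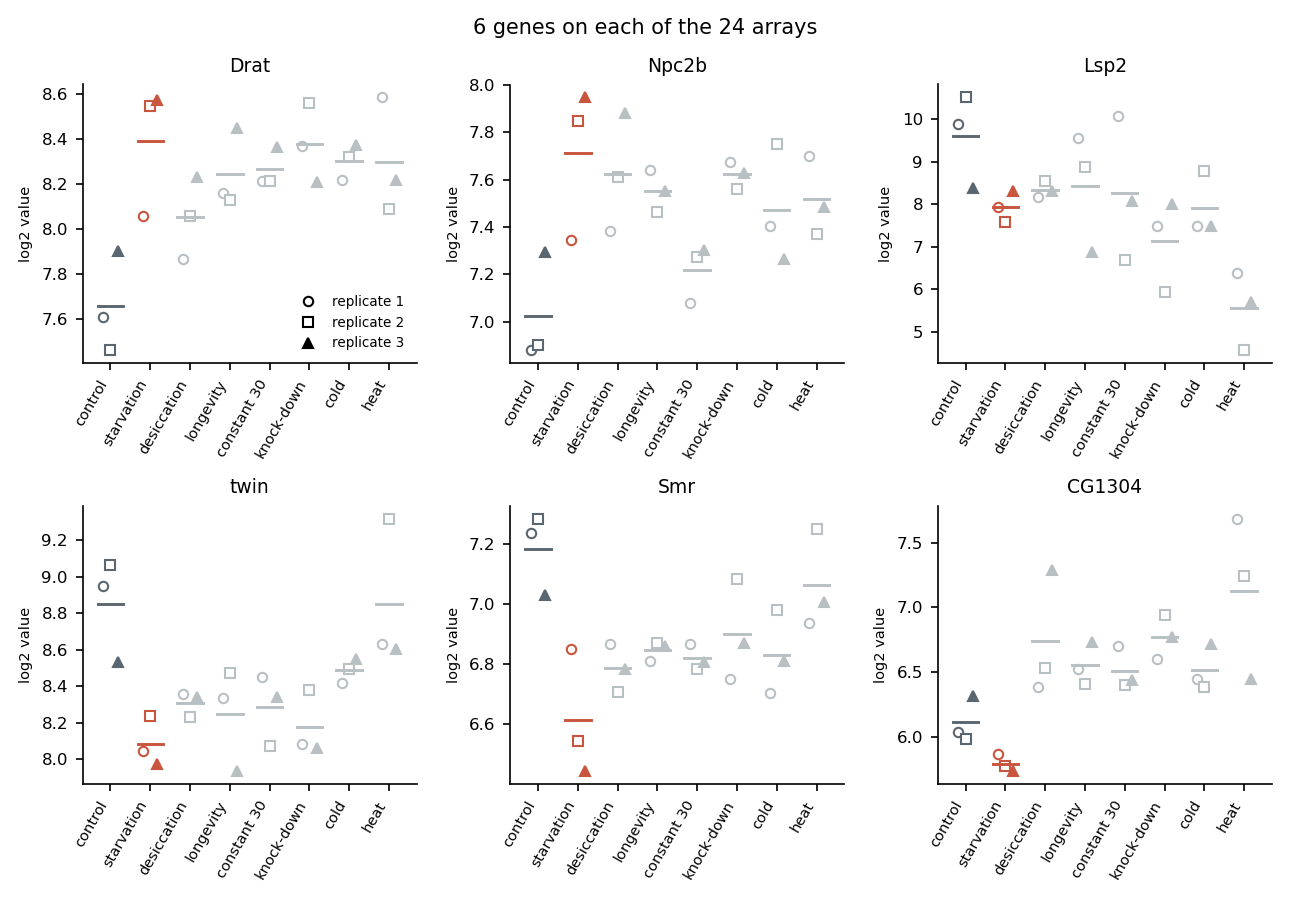
Log2 values (y axis) of 6 genes on each of the 24 arrays, by group (x axis); symbols give the replicate, bars the group mean, with control in dark grey and the starvation selected lines in red. For Drat, Npc2b, Lsp2, twin and Smr control replicates 1 and 2 lie at or beyond the edge of the other 22 arrays, with at most 1 of those among or past them, while CG1304 is lower in all 3 starvation selected lines than on any other array.

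The comparison with the mean of the 6 other regimes uses no control array in its difference, though control shares the estimate of the spread. It also gave 0 calls (0%), with a smallest adjusted p of 0.513 in limma, or 0.986 with control left out of the fit. At an unadjusted p under 0.05 there were 365 probe sets (4.05%), 116 higher (1.29%) and 249 lower (2.76%) in the starvation selected lines. All 3 starvation selected arrays lay beyond all 18 arrays of the other regimes in 9 probe sets (0.0997%), 2 higher (0.0222%) and 7 lower (0.0776%). Of the 6 genes named from these, CG1304 had the largest difference. It was at 5.87, 5.78 and 5.74 in the starvation selected lines, while the other regimes had means of 6.51 to 7.13 and control was at 6.04, 5.99 and 6.32. The difference from the other regimes was -0.91 (unadjusted p = 5.68e-05), that from desiccation selected lines -0.94 and that from longevity selected lines -0.76, but the difference from control was only -0.32 (adjusted p = 0.687 in limma). CG1304 was thus low in both control and starvation selected lines.

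Of the other genes in that set, Ttd14, named for a defect in moving a light-activated channel of the eye, lay 0.35 below the other regimes and 0.40 below control. The Hippo pathway scaffold sav was at 5.71, 5.70 and 5.46 in the starvation selected lines, against 5.97, 5.83 and 5.93 in control, 0.24 below the other regimes. CG18273 lay 0.37 below the other regimes, and its brighter probe set differed from them by 0.03 on the higher side. On the higher side, vers lay 0.19 and or, a subunit of the AP-3 complex that carries cargo to lysosomes and pigment granules, 0.11 above the other regimes. Both differed from control by 0.04 or less, and the sign of or turned when control replicate 1 or starvation selected replicate 1 was left out. Of the genes described above on the lower side, the differences from the other regimes were -0.18 for Scamp, -0.26 for Smr and -0.32 for CG2926. For twin they were -0.31 on the brighter and -0.40 on the fainter probe set. This comparison shares the starvation selected arrays with the one against control.

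Desiccation selected and longevity selected lines were also set directly against the starvation selected lines. Neither comparison gave a call, and 209 (2.32%) and 216 (2.39%) probe sets had an unadjusted p under 0.05. Drat lay 0.34 above desiccation selected lines (unadjusted p = 0.0349) and 0.15 above longevity selected lines. CG2926 lay 0.27 above desiccation selected lines, where it was lowest of all groups, and 0.36 below longevity selected lines. For twin the differences were -0.32 and -0.28 on the fainter probe set. The smallest adjusted p was 0.9998 against desiccation selected and 0.9996 against longevity selected lines in limma.

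Genes of fat synthesis and storage were little different. Of 15 tested, 9 had a higher mean in the starvation selected lines (60%, against 40.8% of all tested genes) and 2 had an unadjusted p under 0.05, both higher, where 3.43% of all genes did so. The median difference was 0.04. One of the pair was mdy, the DGAT1 enzyme that makes triglyceride in the last step, at 8.63, 8.31 and 8.57 in control and at 8.82, 8.72 and 8.90 in the starvation selected lines. These values did not overlap and differed by 0.31 (95% interval 0.08 to 0.55), although a fainter probe set of mdy differed by 0.01. The other was Lpin, the phosphatidate phosphatase of the step before, at 6.91, 6.70 and 7.14 in control and at 6.999, 7.14 and 7.37 in the starvation selected lines, where the groups overlapped (0.25, 95% interval 0.03 to 0.47).

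Lsd-1, a perilipin that coats lipid droplets, was at 9.46, 9.36 and 9.50 in control and at 9.57, 9.89 and 9.78 in the starvation selected lines. It did not overlap, and its difference of 0.30 had a 95% interval from just below 0 to 0.60. It was also 0.27 above the other regimes (unadjusted p = 0.024). The fatty acid synthases FASN1 and FASN2 differed by 0.05 and 0.35 and acetyl-CoA carboxylase ACC by 0.03. For FASN2, control replicates 1 and 2 were at 6.61 and 6.73, and control replicate 3, at 7.32, was above all 3 selected lines, at 7.20 to 7.28. Fat synthesis genes as a group thus held no member with a difference above 0.35.

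Genes of fat breakdown were about even, with 6 of 13 higher (46.2%, against 40.8% of all genes). Their median was -0.04, with 1 unadjusted p under 0.05 in each direction, where 3.43% of all genes were higher and 5.19% lower. The lipase gene Lip4 was at 7.25, 7.15 and 7.12 in control and at 7.42, 7.34 and 7.71 in the starvation selected lines (0.32, 95% interval 0.04 to 0.59). The acyl-CoA dehydrogenase Arc42 lay on the other side, at 8.65, 8.66 and 8.58 in control and at 8.399, 8.44 and 8.52 in the starvation selected lines (-0.18). Brummer (bmm), the main triglyceride lipase of the fat body, differed by -0.04 with a 95% interval of -0.21 to 0.14, and its sign turned when control replicate 2 or starvation selected replicate 2 was left out. The gut lipase gene mag had the widest interval of the list, -0.24 to 1.11, since control replicate 1 was at 7.17 and the other two at 6.32 and 6.38.

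Of 9 genes of lipid transport, LpR2 alone had an unadjusted p under 0.05, on the lower side, where 5.19% of all genes were. LpR2 is a receptor for lipophorin, the particle that carries lipid in the blood. Its brighter probe set was at 9.43, 9.48 and 9.32 in control and at 9.18, 9.13 and 9.01 in the starvation selected lines, and its fainter one at 5.98, 5.74 and 5.60 against 5.47, 5.24 and 5.39. Both were without overlap, with differences of -0.30 and -0.40 (adjusted p = 0.383 and 0.264 in limma). The brighter one was also 0.20 below the other regimes (unadjusted p = 0.0243). The median of the list was 0.00.

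**Figure D3:**
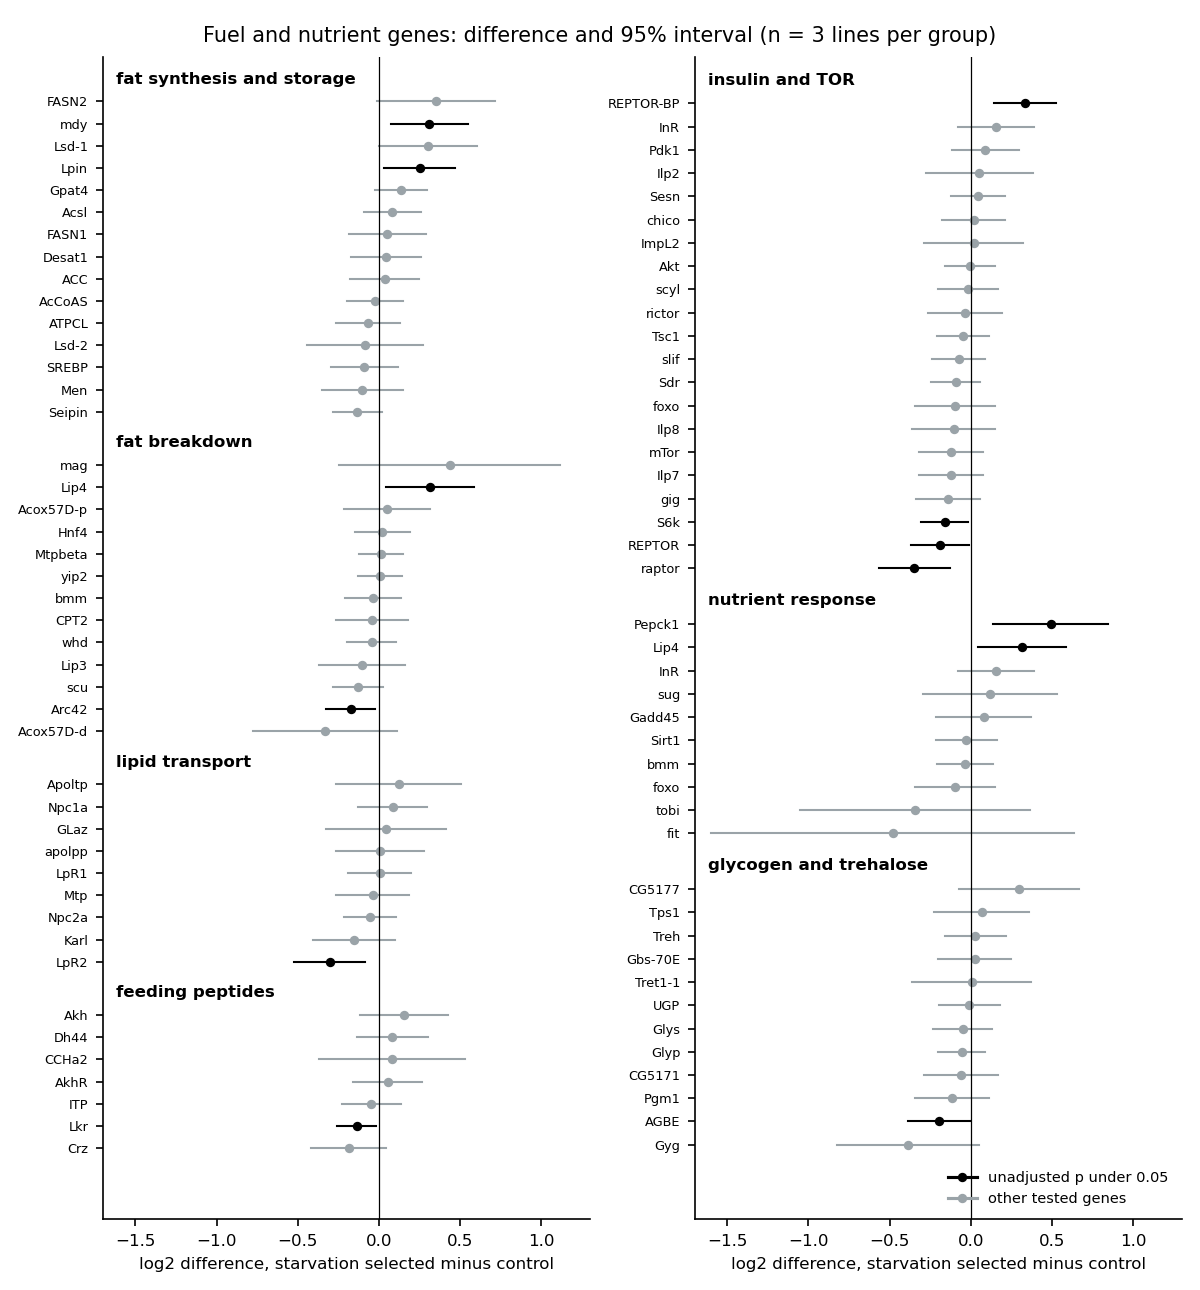
Log2 difference between starvation selected and control lines (x axis) with its 95% interval for every tested gene of 7 lists (y axis; a gene can stand in 2 lists); black marks an unadjusted p under 0.05. Most intervals include 0, and all 83 differences are under 0.5 in size.

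Of 21 insulin and TOR genes 14 had the lower mean, where 4404 of all 7438 genes did, and their median was -0.05, beside -0.03 for all genes. An unadjusted p under 0.05 was found for 1 gene on the higher and 3 on the lower side. At that p 3.43% of all genes were on the higher and 5.19% on the lower side. The TOR complex 1 subunit raptor was at 7.37, 7.55 and 7.13 in control and at 7.16, 6.95 and 6.89 in the starvation selected lines, so that replicate 1 of the latter lay just above control replicate 3 (-0.35 ± 0.11, SE; adjusted p = 0.298 in limma). S6k, the kinase that TOR complex 1 activates, was at 8.02, 8.10 and 8.01 in control and at 7.97, 7.79 and 7.89 in the starvation selected lines, without overlap (-0.16). The kinase mTor itself did not overlap either, at 7.75, 7.83 and 7.76 against 7.71, 7.58 and 7.68, but differed by only -0.12.

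REPTOR and REPTOR-BP encode partners that turn on target genes when TOR complex 1 is inactive. They lay on opposite sides. REPTOR-BP was at 7.70, 7.57 and 7.82 in control and at 7.93, 8.15 and 8.02 in the starvation selected lines (0.33 ± 0.09, SE; adjusted p = 0.267 in limma), while REPTOR differed by -0.19. The difference of REPTOR-BP from the other regimes was 0.00, so for this gene control was the group that stood apart. The insulin receptor InR differed by 0.16 and the transcription factor foxo by -0.10, each with an interval that includes 0, and foxo turned to 0.04 without control replicate 2. Leaving out control replicate 3 gave a call for raptor, as did array weights, which also gave one for REPTOR-BP. No other gene of the list was called in any setting.

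Of 7 tested feeding peptide and receptor genes, Lkr alone had an unadjusted p under 0.05, on the lower side, where 5.19% of all genes were. Lkr is the receptor for leucokinin, a peptide that acts on the renal tubules and on feeding, and it lay near the detection limit at 4.74, 4.73 and 4.83 in control against 4.66, 4.60 and 4.62 (-0.14). The energy hormone Akh was at 3.74, 3.95 and 3.82 in control and at 3.91, 4.15 and 3.92 in the starvation selected lines, and corazonin (Crz) was at 4.18, 4.09 and 4.21 against 3.94, 3.996 and 3.99.

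Among 10 genes known to respond to food, Pepck1 and Lip4 had an unadjusted p under 0.05, both higher (20%, against 3.43% of all genes). Pepck1, which makes the committed step of glucose synthesis, was at 10.89, 11.21 and 11.51 in control and at 11.66, 11.60 and 11.82 in the starvation selected lines (0.49, 95% interval 0.14 to 0.84; adjusted p = 0.382 in limma). It did not overlap, and control replicate 3 was again the nearest control. The difference was 0.33 without control replicate 1 and 0.64 without control replicate 3. The satiety peptide gene fit and the insulin target tobi had means 0.48 and 0.34 lower, but their control lines ranged from 8.81 to 10.10 and from 10.06 to 11.19.

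Of 12 genes of glycogen and trehalose, 7 had the lower mean, where 4404 of all 7438 genes did. AGBE, the glycogen branching enzyme, had an unadjusted p under 0.05, at 7.85, 7.998 and 7.91 in control against 7.74, 7.67 and 7.76 (-0.20). Glycogenin (Gyg), which starts a glycogen chain, lay at 7.68, 8.11 and 7.69 in control and at 7.49, 7.41 and 7.42 in the starvation selected lines. Its groups did not overlap either (-0.39, 95% interval -0.83 to 0.05). The 7 lists on fuel and nutrients hold 83 genes together, of which 12 (14.5%, beside 8.62% of all genes) had an unadjusted p under 0.05, 5 higher and 7 lower, and 0 were called. All 83 differences were under 0.5 in size. The 95% interval lay within 0.5 of 0 for 66 genes and within 1 for 80, so a difference beyond a doubling lay outside the interval of these 80.

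In mitochondria, 46 of 51 genes of oxidative phosphorylation had the higher mean (90.2%, against 40.8% of all genes), by a median of only 0.06. An unadjusted p under 0.05 was found for UQCR-6.4, a subunit of complex III, at 11.28, 11.26 and 11.53 in control against 11.60, 11.68 and 11.67 (0.29), and for ND-15 of complex I (0.22). These 2 genes were 3.92% of the list, beside 3.43% of all genes that were higher at that p. The mean over the 51 genes was 9.76, 9.75 and 9.89 in control and 9.83, 9.84 and 9.93 in the starvation selected lines. These overlapped, with control replicate 3 between selected lines, and against the other regimes the median difference was -0.02. Glycolysis (14 genes, median -0.05) and the tricarboxylic acid cycle (12 genes, median 0.00) held 1 and 0 genes with an unadjusted p under 0.05, the former being Pepck1.

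Of 25 gut proteases 20 had the higher mean (80%, against 40.8% of all genes), by a median of 0.14, and none had an unadjusted p under 0.05. The Jonah protease gene Jon65Aii was at 7.84, 6.91 and 7.29 in control and at 7.94, 7.98 and 8.65 in the starvation selected lines (0.84 ± 0.44, SE). Jon66Cii differed by 0.97 ± 0.59 (SE), mostly through starvation selected replicate 3 at 7.69 against 5.90 and 6.21. The median of the list ran from 0.03 without control replicate 2 to 0.28 without starvation selected replicate 2. Of 7 lysozymes 6 had the higher mean (85.7%, against 40.8% of all genes), by a median of 0.23. LysP alone had an unadjusted p under 0.05 (14.3% of the list, where 3.43% of all genes were higher at that p). LysX differed by 0.71, with starvation selected replicate 1 at 7.998 and the other two at 6.98 and 7.18. LysB, LysC, LysD and LysE are near copies of each other, so their probe sets may share signal. Of the maltases, Mal-A4 and Mal-A8 differed by 0.46 and 0.44 with overlapping groups, and the 12 genes of sugar digestion had a median of 0.02 that turned to -0.06 without starvation selected replicate 2. Against the other regimes the medians were -0.05 for gut proteases and -0.02 for lysozymes.

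Muscle genes had the largest median of any list with 5 or more genes, 0.39. Of 21 genes 18 had the higher mean (85.7%, against 40.8% of all genes). An unadjusted p under 0.05 was found for 5, all higher (23.8%, against 3.43% of all genes). Tropomyosin 2 (Tm2) was at 6.99, 7.17 and 7.67 in control and at 7.74, 7.92 and 8.02 in the starvation selected lines (0.61 ± 0.21, SE; adjusted p = 0.382 in limma). Troponin C (TpnC41C) was at 8.50, 8.97 and 9.47 in control and at 9.41, 9.86 and 9.78 in the starvation selected lines (0.70 ± 0.25, SE), and troponin T (up) and the titin-like sls differed by 0.51 and 0.39. In each of these genes control replicate 3 was the highest control. This held for the mean over the 21 genes too, at 8.71, 8.90 and 9.34 in control and 9.05, 9.43 and 9.40 in the starvation selected lines. Without control replicate 3 the median was 0.57, without control replicate 1 it was 0.23, and against the other regimes it was -0.02. Array weights gave calls for Tm2 and TpnC41C.

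Of 12 genes of phototransduction in the eye 10 had the higher mean (83.3%, against 40.8% of all genes), by a median of 0.31. An unadjusted p under 0.05 was found for 5, all higher, where 3.43% of all genes were. Arrestin 2 (Arr2), which ends the light response, was at 10.02, 10.08 and 10.71 in control and at 10.56, 10.76 and 10.63 in the starvation selected lines (0.38). The diacylglycerol kinase rdgA, the protein kinase C inaC and the channel trp differed by 0.34, 0.44 and 0.49. The mean over the 12 genes was 6.03, 6.06 and 6.46 in control and 6.29, 6.49 and 6.39 in the starvation selected lines, so that control replicate 3 lay inside the range of the selected lines. Against the other regimes the median was -0.08. Without control replicate 3, Arr2 and rdgA were called, and with array weights Arr2, rdgA and trp.

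All 6 neuronal genes had a higher mean, against 40.8% of all genes, by a median of 0.13. Ddc, which makes dopamine and serotonin, was at 6.77, 6.80 and 7.31 in control against 7.24, 7.49 and 7.43 (0.43). Of 9 clock genes 8 were higher (88.9%, against 40.8% of all genes), by a median of 0.11. The clock gene tim was at 6.34, 6.25 and 6.44 in control and at 6.63, 6.82 and 7.05 in the starvation selected lines on its brighter probe set, without overlap (0.50 ± 0.17, SE; adjusted p = 0.379 in limma), and its fainter one differed by -0.21. The activator Pdp1 differed by 0.28, also without overlap. The hour of sampling, on which clock transcripts depend, is not in the labels.

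**Figure D4:**
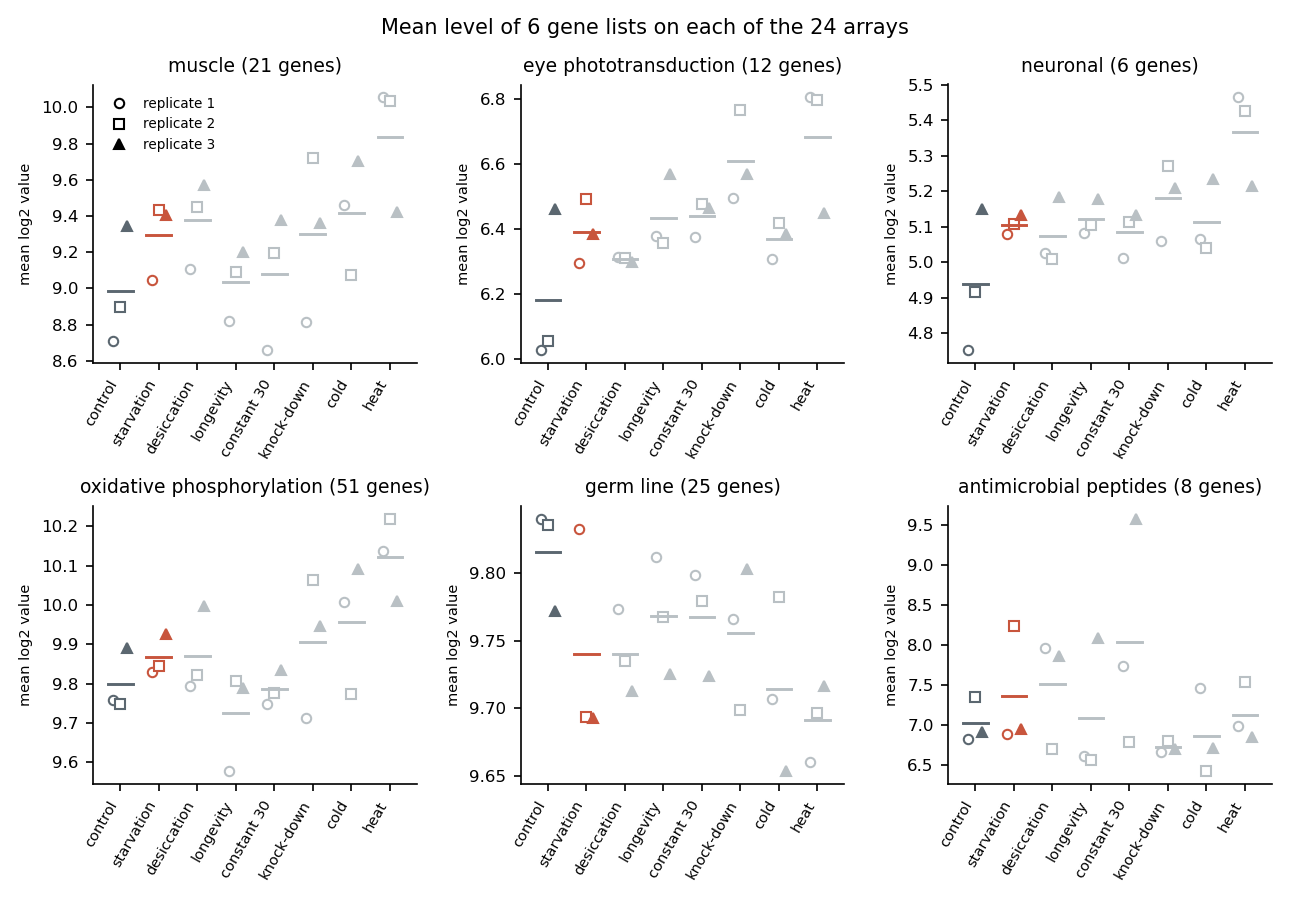
Mean log2 value over the genes of 6 lists (y axis) on each of the 24 arrays, by group (x axis); symbols give the replicate and bars the group mean, with control in dark grey and the starvation selected lines in red. For muscle, eye and neuronal genes control replicates 1 and 2 lie below all 3 selected lines, while control replicate 3 lies inside their range for muscle and eye genes and above it, at 5.15, for neuronal genes; for antimicrobial peptides starvation selected replicate 2 stands at 8.24.

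Of 25 germ line genes of the ovary 21 had the lower mean, where 4404 of all 7438 genes did, by a median of -0.06. An unadjusted p under 0.05 was found for 3, all lower, where 5.19% of all genes were. Bicaudal C (BicC), an RNA-binding protein of the oocyte, was at 10.39, 10.56 and 10.24 in control and at 10.25, 9.86 and 9.83 in the starvation selected lines (-0.41 ± 0.12, SE; adjusted p = 0.293 in limma), and it was called with array weights. The oogenesis gene otu and cyclin B (CycB) differed by -0.26 and -0.24, each without overlap. The germ line mean was 9.84, 9.84 and 9.77 in control and 9.83, 9.69 and 9.69 in the starvation selected lines, with starvation selected replicate 1 at the level of control. The 3 yolk protein genes Yp1, Yp2 and Yp3 differed by -0.11, -0.18 and -0.10 and 17 eggshell genes had a median of -0.06, none with an unadjusted p under 0.05. Against the other regimes the medians were 0.01 for germ line and 0.15 for eggshell genes, and against control the eggshell median turned to 0.04 without control replicate 1. The eggshell genes Cp38, Cp19 and yellow-g differed by -0.18, -0.23 and -0.32.

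Of 28 proteasome genes 24 had the lower mean, where 4404 of all 7438 genes did. Their median was -0.03, which is that of all genes. Rpn2, a scaffold of the regulatory particle, was at 10.24, 10.12 and 10.31 in control and at 9.98, 9.81 and 9.82 in the starvation selected lines (-0.35 ± 0.12, SE), and Rpn11 and Rpn13R differed by -0.12 and -0.15. Of 33 cytosolic ribosomal protein genes 25 had the higher mean (75.8%, against 40.8% of all genes), by a median of 0.02. RpS12 (0.14) and RpL37A (0.12) had an unadjusted p under 0.05, both higher (6.06%, against 3.43% of all genes). Mitochondrial ribosomal proteins (64 genes) had a median of 0.01. The autophagy and lysosome genes (20 genes) had a median of -0.02, with Atg1, the kinase that starts autophagy, at 8.96, 8.92 and 9.02 in control against 9.19, 9.07 and 9.01 (0.12).

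Among 8 antimicrobial peptide genes the median difference was 0.30, but it rested on 1 array. Their mean was 6.83, 7.35 and 6.92 in control and 6.89, 8.24 and 6.95 in the starvation selected lines, and without starvation selected replicate 2 the median was -0.11. Diptericin B (DptB) was at 8.64 on that array and at 4.98 and 5.47 in the other selected lines, against 4.76 to 6.33 in control, and its difference turned from 0.85 to -0.29 without it. The antifungal peptide drosomycin (Drs) differed by 0.35, at 11.07, 11.16 and 11.44 in control against 11.37, 11.76 and 11.61. Of 18 genes of immune recognition and signalling, the factor Relish (Rel, 0.17) and PGRP-LA (0.31) had an unadjusted p under 0.05 on the higher and imd (-0.15) on the lower side. At that p 3.43% of all genes were higher and 5.19% lower.

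Detoxification genes held a few members with an unadjusted p under 0.05, where 3.43% of all genes were higher and 5.19% lower. Of 16 UDP-glycosyltransferases, which couple sugars to toxins, Ugt37A2 and Ugt302C1 had an unadjusted p under 0.05, both higher (12.5%). Ugt37A2 was at 4.26, 4.15 and 4.73 in control, near the detection limit, and at 5.23, 4.56 and 5.03 in the starvation selected lines (0.56 ± 0.17, SE). It was also 0.40 above the mean of the other regimes (unadjusted p = 0.0068 in limma). Knock-down selected lines, at 5.15, 4.72 and 5.21, and cold selected lines, at 5.16, 4.68 and 4.81, had a similar level. That level was thus not particular to the starvation selected lines. Of 26 glutathione transferases, GstE2 (0.42) and GstE8 (0.29) had an unadjusted p under 0.05, both higher (7.69%), and the median was 0.07. Of 59 cytochrome P450 genes 29 lay above and 30 below 0. At an unadjusted p under 0.05 there were Cyp6a20 (0.47) on the higher side (1.69%) and 3 on the lower. Of these, Cyp6a22 was at 9.49, 9.57 and 9.47 in control and at 9.29, 9.27 and 9.26 in the starvation selected lines, a small difference (-0.24) with narrow spread.

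The small heat shock protein gene l(2)efl was at 8.29, 8.10 and 8.82 in control and at 8.74, 9.03 and 9.18 in the starvation selected lines (0.58 ± 0.22, SE), while Hsp27 differed by -0.23 and the 12 heat shock genes had a median of 0.02. The 10 antioxidant genes had a median of -0.05 and no unadjusted p under 0.05. Cuticle genes had 22 of 29 members below 0, where 4404 of all 7438 genes were (median of the list -0.06). TwdlD, a Tweedle cuticle protein, was at 5.28, 5.21 and 4.81 in control and at 4.72, 4.79 and 4.85 in the starvation selected lines (-0.31). Of 26 genes of water and ion balance, the potassium channel Irk3 (0.51) and the V-ATPase subunit Vha36-1 (0.21) had an unadjusted p under 0.05. Both were higher (7.69%, against 3.43% of all genes), and the median of this list was 0.04. The 17 odorant binding protein genes had a median of 0.03 and no unadjusted p under 0.05.

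**Figure D5:**
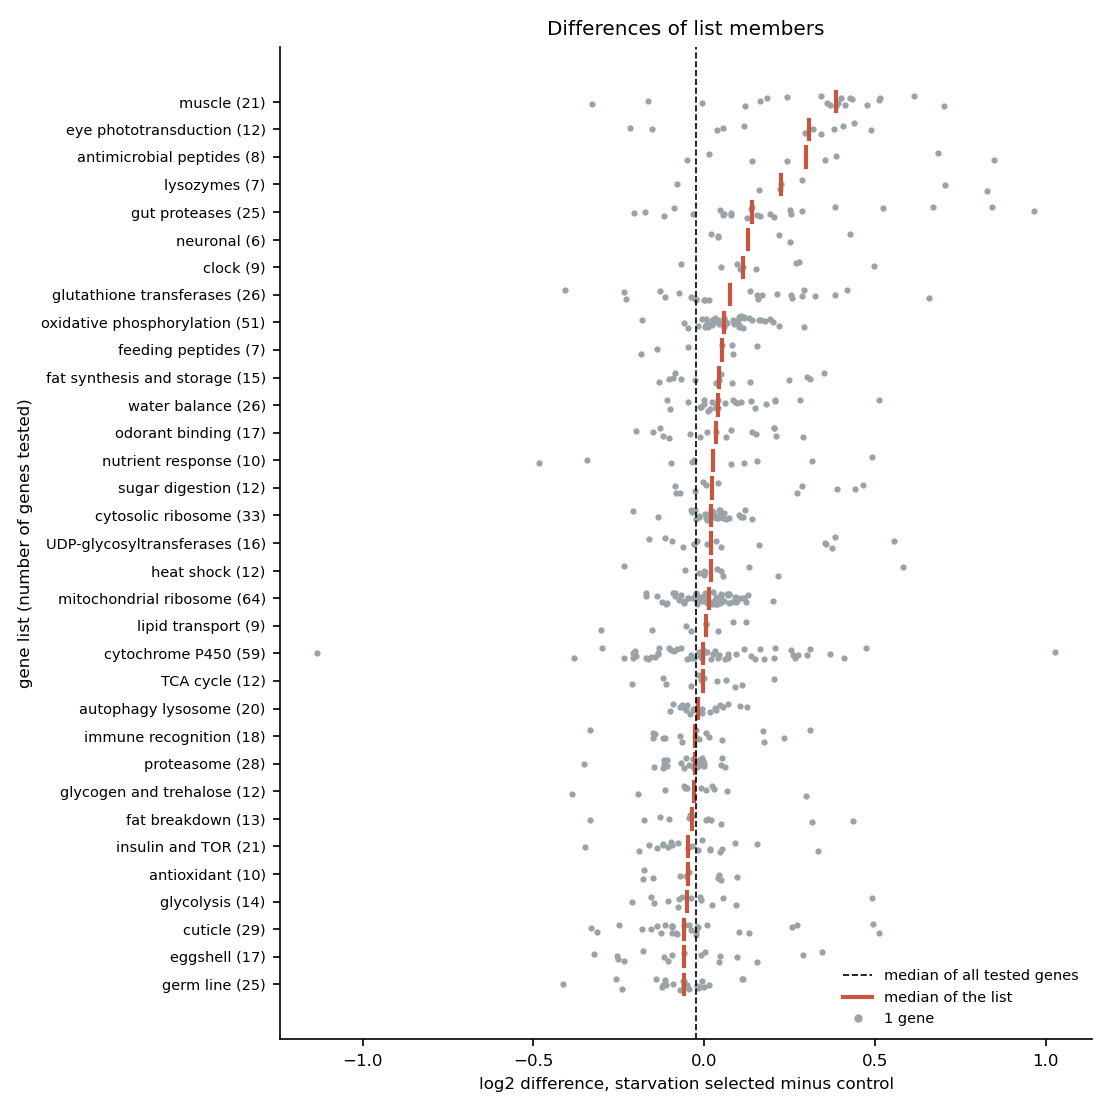
Log2 difference between starvation selected and control lines (x axis) for every tested gene of the 33 lists with at least 5 genes (y axis, number of genes in parentheses); red bars are list medians and the dashed line is the median of all tested genes, -0.03. Muscle (0.39), eye (0.31) and antimicrobial peptide genes (0.30) have the highest medians, and the lists on fuel and nutrients lie within 0.1 of 0.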

How the data were processed

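Transcripts of whole females were measured on 1-colour Affymetrix arrays. The deposited values are the authors' log2 signals per probe set, made with GCRMA, a background correction and normalization, per the submitters' processing notes; its settings are not stated by the labels, and no further normalization was applied. Gene symbols came from the platform annotation, updated through a RefSeq gene table used for names alone: 12443 of 13966 probe sets named 1 gene, and 8068 of the 9023 tested. The array's own 44 control probe sets were not tested.

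All 24 arrays entered a single limma model that gives each group its own mean (version 3.58.1, R 4.3.3; lmFit, eBayes, 16 residual degrees of freedom, two-sided, Benjamini-Hochberg per comparison), and the fit was tested on simulated data. The number of arrays, 3 per group, limits the precision: the median SD of a probe set within a group was 0.12.

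Same-numbered lines deviated together from their group means, with correlations of 0.105, 0.125 and 0.246, so the fit with a replicate block is given beside the count of calls. The labels do not say what a shared number means, and starvation selected line 1 correlated more with control line 2, at 0.139.

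The members and gene lists were chosen with earlier results of these data known. Named genes are, on each side, the 10 probe sets of smallest unadjusted p with 1 gene and no overlap between groups, the 6 largest such differences at an unadjusted p under 0.05, up to 4 members per list by p, any tested member of the 7 fuel and nutrient lists, and up to 4 per side that do not overlap with the other regimes. In lists a gene is represented by its brightest probe set.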

Additional observations from a re-analysis of the deposited data

How the results depend on the processing

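For starvation selected against control, 0 probe sets were called without a filter, with quantile normalization, with only the 6 arrays compared and with a trended robust prior. There were 2 calls with a filter at 6, 4 with arrays centred on their medians, 177 with array weights, 6 with the replicate block that pairs same-numbered lines and 2 with the RNA quality measure as a covariate; leaving out 1 array in turn gave 0 to 83, the highest without control replicate 3. Of the 20 probe sets picked by smallest p, 20 were called with array weights, 16 without control replicate 3, 8 without starvation selected replicate 1 and 4 with the block. Against the 6 other regimes there were 9 calls with array weights and 0 to 1 when 1 array was left out, the call arising without starvation selected replicate 2, and against desiccation selected lines 1 with array weights; their other settings gave 0. The cause of these shifts was not tested. The 3′ minus 5′ difference of 0.0225 ranged from -0.0175 to 0.0824 when 1 array was left out, with the sign turned without control replicate 2 (-0.00566) and without starvation selected replicate 2 (-0.0175).

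Of 1676 values of named probe sets under alternatives, 1596 kept direction and side of the threshold, 71 became calls and 9 turned sign, all when 1 array was left out. With each array left out in turn, foxo ran from -0.186 to 0.042, DptB from -0.287 to 1.54, or from -0.0109 to 0.098, bmm from -0.0884 to 0.0292, ACC from -0.0349 to 0.0787 and bol from -0.12 to 0.132. Of 522 list medians, 470 stayed within the spread between replicates and 52 moved further.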
